A study of Mus musculus with 16 samples.

Results

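Immediate early genes are the genes that cells switch on within minutes of a growth signal, without making new protein first. 10 of them were followed here, taken from a list of names that was set with earlier results of these data known: 10 of the 50686 genes in the count files, namely Egr1, Egr2, Egr3, Fos, Fosb, Jun, Junb, Ier2, Nr4a1 and Srf. Each symbol matched 1 gene identifier, and all 10 had enough counts to be tested in every comparison. With the CDK8/19 inhibitor Senexin B, Egr3 rose 3.27-fold over 8 cell lines, from 0.377 to 2.28 CPM (counts per 1000000 counted reads) with DMSO to 1.11 to 4.75 CPM with the inhibitor. Egr3 was the only member past the limits in the 6 comparisons as planned, and the call was lost when any of 7 of the 8 lines was left out. Egr1 was lower with Senexin B in 7 of 8 lines, and no member differed between the genotypes past the limits.

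EGR proteins are zinc finger transcription factors, FOS and JUN proteins pair to form the AP-1 transcription factor, NR4A1 is an orphan nuclear receptor, and IER2 is a small protein induced together with them. SRF, serum response factor, binds CArG boxes in the promoters of many of these genes, where ternary complex factors that are phosphorylated by the ERK kinases switch them on. CDK8 and its paralog CDK19 are the kinases of the Mediator kinase module, and CDK8 is known to aid elongation by RNA polymerase II at serum response genes. The comparisons ask whether the steady level of these transcripts depended on CDK8 or on its kinase activity.

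The samples were BCR-ABL1p185+ transformed bone marrow cell lines of C57BL/6N mice, 4 with wild-type and 4 with knockout labels. The study's text names the former Cdk8 fl/fl and the latter Cdk8 Δ/Δ Vav-Cre, in which Cre recombinase under the Vav promoter deletes the floxed gene in blood cells of the donor mouse; all 8 lines carry the retroviral BCR-ABL1p185 oncogene. They are called control lines WT1 to WT4 and knockout lines KO1 to KO4 below, by their replicate number, and the labels give no age. Each line was cultured for 48 h with 1 µM Senexin B or with DMSO as the control, in medium that held 10% fetal calf serum throughout. The values are therefore levels in cells kept in serum, not a response to serum added after its withdrawal.

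The 4 lines of a group are its replicates, and whether each came from a separate mouse is not stated in the labels. P-values between genotypes measure the spread between lines. In fits with the line as a block they measure the spread of the changes within lines. Fits of the inhibitor or the interaction with no block treat both libraries of a line as independent. The 16 libraries held 13145876 to 18349425 counted reads, and mitochondrial genes took 6.585% to 12.32% of them. All 12 B-lineage markers were detected in every group, and Pax5, a transcription factor that keeps B-cell identity, stood at 785 to 1614 CPM. Rag1, Rag2 and Dntt of these 12 varied widely between libraries, at 1.22 to 123.5, 0.14 to 44.85 and 0.863 to 282 CPM. With DMSO their means were 2.71, 1.34 and 12.6 CPM in control and 30.9, 16.5 and 72.5 CPM in knockout lines, with wide spreads between lines. The CD3 chains of the T-cell receptor complex, Cd3e, Cd3g and Cd3d, and the coreceptors Cd4 and Cd8a did not pass 0.245 CPM in any library. The sixth gene of that list, Cd2, which mouse B cells also express, stood at 24.3 to 231 CPM. Of the 6 erythroid markers, Tfrc, the transferrin receptor of dividing cells, stood at 130.2 to 446 CPM and the other 5 did not pass 1.32 CPM. Among the 8 myeloid markers Elane was at 0 throughout and Lyz2 reached 24.6 CPM, and the 6 stromal and fibroblast markers together did not pass 2.46 CPM. Cdk8 RNA was still counted in the knockout libraries, at 44.3 ± 7.09 CPM (SD, n = 4) with DMSO against 64.8 ± 3.03 CPM in control lines. The DMSO groups did not overlap, as was so for 3.14% of 13174 genes tested. The log2 fold change was -0.55 (standard error 0.14, adjusted p = 0.897, edgeR). Counts summed over a whole gene do not show whether an exon is missing. By immunoblot the study reports that CDK8 protein was absent from leukemic cells of the knockout genotype recovered from mice. It also probed CDK8 by immunoblot in cultured cell lines of both genotypes and describes those of the knockout genotype as CDK8-deficient. It does not state whether any of these were the sequenced lines. Cdk19 was 193 ± 61.5 CPM in control and 159 ± 22.8 CPM in knockout lines with DMSO.

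Promoter windows of RefSeq transcripts (GRCm38.p6, from 250 bases before to 50 after the start site) were found for 7 of the 10 genes, in 11 windows, and not for Egr1, Egr3 and Ier2. They are shown so that the motif matches of the members can be set side by side. The motifs searched were the CArG box bound by SRF, TGACG (the core of the cyclic AMP response element, also part of the full element TGACGTCA), the EGR motif GCGGGGGCG, each on both strands, and TATAAA on the gene's strand. A CArG box lay in windows of Srf and Egr2 and in no window of the other 5 genes. That is 5 of the 11 windows, against 1.629% of all 32851 windows. Several of the 11 are windows of Egr2 that overlap each other and share matches. Bases more than 250 before a start site were not searched, so a gene without a match here may have a box further away. The core TGACG was found in 6 of the 7 genes, in 8 of the 11 windows, and in 20.812% of all windows. The full TGACGTCA was found in none of the 7 genes and in 1.79% of all windows. The EGR motif was found in 3 of the 7 genes, Srf, Fosb and Nr4a1, in 3 of the 11 windows, and in 2.907% of all windows. TATAAA was found in Fos and Junb, in 2 of the 11 windows, and in 8.319% of all windows. The Jun window held none of these letters. Egr2 held a further, different CArG box before another of its start sites, which is not printed. The promoters below run 5′ to 3′ on the gene's strand with the matches in capitals.
Srf, the 250 bases before the start site, minus strand, chr17:46556163-46556412, with 2 CArG boxes, an EGR motif and TGACG: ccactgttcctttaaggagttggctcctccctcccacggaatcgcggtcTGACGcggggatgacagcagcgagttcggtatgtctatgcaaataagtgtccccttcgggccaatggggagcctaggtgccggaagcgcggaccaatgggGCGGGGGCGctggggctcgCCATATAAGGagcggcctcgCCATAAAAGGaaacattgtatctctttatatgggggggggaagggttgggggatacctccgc
Egr2, a CArG box with 10 bases either side, plus strand, chr10:67537787-67537816: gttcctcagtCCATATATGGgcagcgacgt
Fos, the 250 bases before the start site, plus strand, chr12:85473640-85473889, with TGACG and TATAAA: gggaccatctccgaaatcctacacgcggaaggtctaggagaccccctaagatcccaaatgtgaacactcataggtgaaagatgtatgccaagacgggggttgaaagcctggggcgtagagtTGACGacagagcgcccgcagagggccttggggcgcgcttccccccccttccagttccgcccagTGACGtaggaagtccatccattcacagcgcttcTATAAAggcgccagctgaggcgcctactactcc
Nr4a1, the 250 bases before the start site, plus strand, chr15:101266596-101266845, with TGACG in reverse (CGTCA) and the EGR motif in reverse: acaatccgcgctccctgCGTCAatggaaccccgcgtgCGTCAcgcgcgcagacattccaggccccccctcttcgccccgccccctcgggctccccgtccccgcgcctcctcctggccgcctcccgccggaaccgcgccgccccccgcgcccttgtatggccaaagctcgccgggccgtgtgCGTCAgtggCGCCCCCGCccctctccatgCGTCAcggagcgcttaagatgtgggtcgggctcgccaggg

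**Figure D1:**
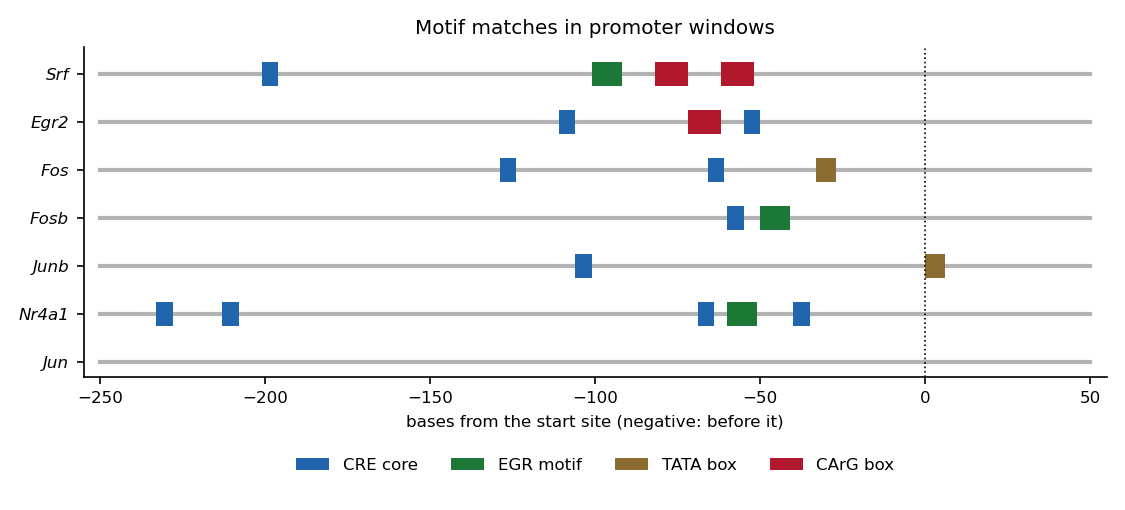
Motif matches in 1 promoter window per gene, the one with the most matches, drawn by distance in bases from the start site (dotted line) for the 7 genes with a window. The 2 CArG boxes of Srf begin 82 and 62 bases before its start, the 1 in the Egr2 window drawn begins 72 bases before that start, and Jun has no match.

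Levels of different genes were compared as RPKM (reads per kilobase of exon and per 1000000 counted reads). By the mean of the 16 libraries the order was Ier2 (62.4), Egr1 (38.5), Jun (15.5), Srf (13.7), Junb (10.8), Fos (5.28), Nr4a1 (5.09), Fosb (3.89), Egr3 (1.22) and Egr2 (1.09 RPKM). In the control DMSO libraries neighbours in this order overlapped, except that Junb stood above Fos and Fosb above Egr3 without overlap. Srf varied least, 2.21-fold between its lowest and highest library, and Nr4a1 most, 109-fold, from 0.149 to 16.2 RPKM. The RPKM of Egr3 rested on 6 to 66 counts per library and that of Egr2 on 5 to 148, whereas Egr1 had 1055 to 8068.

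**Figure D2:**
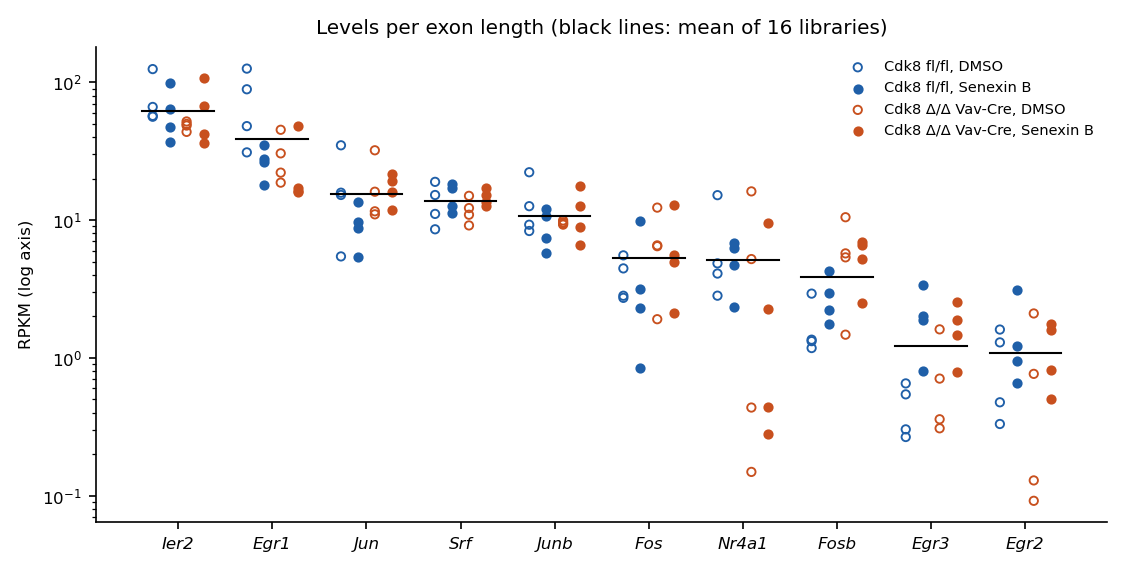
Level of each member in RPKM on a log axis, 1 point per library, coloured by genotype and filled for Senexin B, with a black line at the mean of 16 libraries. Ier2 and Egr1 lie highest, and Egr3 and Egr2 lie lowest at means of 1.22 and 1.09 RPKM.

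To test the inhibitor within each line, all 16 libraries were fitted with the line as a block. Of the 10 members 1, Egr3, was called (an adjusted p below 0.05 with a change of more than 2-fold), as were 0.946% of the 14164 genes tested; 0.572% were called higher. At an unadjusted p under 0.05, 2 members were higher (Egr3 and Srf) and 1 was lower (Egr1), against 7.79% and 8.61% of all genes. The median log2 fold change of the 10 members was -0.09, and that of all genes tested -0.005. In bulk RNA a lower level in each cell and fewer cells that express a gene cannot be told apart.

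Egr3, an EGR factor known for its role in lymphocyte development (ENSMUSG00000033730, chromosome 14, 70077445 to 70080157), was low everywhere. With DMSO it stood at 0.924, 0.377, 0.429 and 0.769 CPM in WT1 to WT4 and at 0.436, 1.00, 0.507 and 2.28 CPM in KO1 to KO4. With Senexin B it stood at 4.75, 1.14, 2.67 and 2.84 CPM in WT1 to WT4 and at 2.07, 2.68, 3.58 and 1.11 CPM in KO1 to KO4. The control groups did not overlap, and KO4 was the 1 line of 8 in which Egr3 was lower with the inhibitor. The rise within line was 1.71 on the log2 scale (standard error 0.37, adjusted p = 0.0341, edgeR's quasi-likelihood test). Leaving out each line in turn gave log2 fold changes of 1.57 to 2.13 and adjusted p of 0.002 to 0.0937: the call was kept without KO4 (adjusted p = 0.002) and lost without any of the other 7 lines. DESeq2 gave 1.78 with an adjusted p of 0.000438. Without the block the adjusted p was 0.532, and with at least 10 counts asked of every library the gene was not tested.

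Egr1, the most abundant EGR factor here (ENSMUSG00000038418), was lower with the inhibitor in most lines. With DMSO it stood at 216, 399, 139 and 564 CPM in WT1 to WT4, and with Senexin B at 158, 125, 81.0 and 119 CPM. In KO1 to KO4 it stood at 99.1, 83.8, 203 and 137 CPM with DMSO and at 215, 76.8, 71.4 and 73.4 CPM with Senexin B. It was lower in all 4 control lines and in 3 of 4 knockout lines, with KO1 2.17-fold higher. The log2 fold change within line was -0.84 (standard error 0.31), which did not pass (adjusted p = 0.204, edgeR). Without KO1 it was -1.09 with an adjusted p of 0.0323, and without each of the other lines the adjusted p was at least 0.245.

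Egr2, a close relative of Egr3 that is known to act with it in lymphocytes, was higher in 5 of 8 lines. It stood at 1.62, 4.40, 1.13 and 5.45 CPM with DMSO in WT1 to WT4 and at 10.6, 4.17, 2.25 and 3.23 CPM with Senexin B. In KO1 to KO4 it went from 0.312, 0.438, 2.60 and 7.13 CPM to 2.75, 1.72, 5.94 and 5.43 CPM. All 4 groups overlapped. The log2 fold change within line was 0.90 (standard error 0.42, adjusted p = 0.313, edgeR).

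Srf, the factor that binds the CArG boxes shown above, differed little and in a narrow band. It stood at 35.1, 77.6, 62.2 and 45.4 CPM with DMSO in WT1 to WT4 and at 45.8, 74.3, 70.3 and 51.6 CPM with Senexin B. In KO1 to KO4 it stood at 37.4, 44.8, 50.0 and 61.4 CPM and then at 52.2, 55.0, 62.5 and 70.2 CPM. It was higher with the inhibitor in 7 of 8 lines, by 1.39-fold at most, and WT2 was the exception. The log2 fold change within line was 0.25 (standard error 0.08, adjusted p = 0.125, edgeR), and leaving out each line gave 0.22 to 0.29 with adjusted p of 0.0621 to 0.251.

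Of the 10 members, Egr1, Egr3 and Srf differed in the same direction in at least 7 of 8 lines, as did 16.7% of all genes tested. None did so in all 8, against 4.55% of genes. The AP-1 members had no common direction. Jun, the founding JUN protein, was lower in all 4 control lines, from 17.4, 48.5, 50.4 and 111 CPM to 17.2, 43.2, 28.2 and 31.1 CPM. In KO1 to KO4 it went from 102, 35.1, 51.2 and 36.9 CPM to 68.4, 37.8, 60.9 and 50.7 CPM, so that it was higher in 3 of these 4 lines. Its log2 fold change within line was -0.32 (standard error 0.22, adjusted p = 0.519, edgeR).

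Fosb, a FOS protein that accumulates in long-stimulated cells as a shortened form, was higher in 5 lines. It went from 8.26, 7.35, 18.3 and 8.46 CPM to 26.5, 18.4, 11.1 and 13.9 CPM in WT1 to WT4. In KO1 to KO4 it went from 65.5, 35.8, 33.5 and 9.19 CPM to 43.4, 32.5, 41.2 and 15.7 CPM. Fos was higher in 4 lines and lower in 4, and lay between 1.98 CPM (WT3 with Senexin B) and 30.1 CPM (KO1 with Senexin B). For Fosb and Fos the intervals of 2 standard errors around the log2 fold change within line ran from -0.13 to 0.90 and from -0.67 to 0.23.

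Junb, a JUN protein that often opposes Jun, and Ier2 differed in the same direction as each other in all 8 lines, and for the other 44 pairs of members the count was 6 lines or fewer. How often pairs of other genes do so was not tested. Junb went from 21.3, 29.0, 19.2 and 51.2 CPM to 27.9, 24.6, 13.3 and 17.1 CPM in WT1 to WT4. Ier2 went from 87.1, 101, 85.7 and 190 CPM to 150, 97.7, 55.8 and 72.3 CPM in the same lines. In KO1 to KO4, Ier2 went from 76.0, 66.5, 73.9 and 79.1 CPM to 164, 102, 64.3 and 54.8 CPM. Both were higher in WT1, KO1 and KO2 and lower in the other 5 lines, with log2 fold changes within line of -0.15 for Junb (standard error 0.23) and -0.03 for Ier2 (standard error 0.25). Junb overlaps Prdx2 on the opposite strand, which had 1589 to 3729 counts, and the counts were taken without regard to strand.

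Nr4a1, a receptor induced by antigen receptor signals in B cells, differed more between lines than between treatments. It stood at 37.5, 12.0, 10.1 and 6.99 CPM with DMSO in WT1 to WT4 and at 15.5, 17.0, 11.6 and 5.77 CPM with Senexin B. In KO1 to KO4 it stood at 12.9, 40.0, 1.08 and 0.368 CPM with DMSO and at 5.57, 23.4, 1.09 and 0.696 CPM with Senexin B. KO3 and KO4 were low under both treatments. On the log2(CPM + 1) scale the SD of the 8 line means was 1.57. The 8 changes had a mean of -0.29 and an SD of 0.65. The SD of line means was also larger than that of changes for Fos (0.91 and 0.66), Fosb (0.86 and 0.81) and Srf (0.31 and 0.16). For the other members it was smaller.

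**Figure D3:**
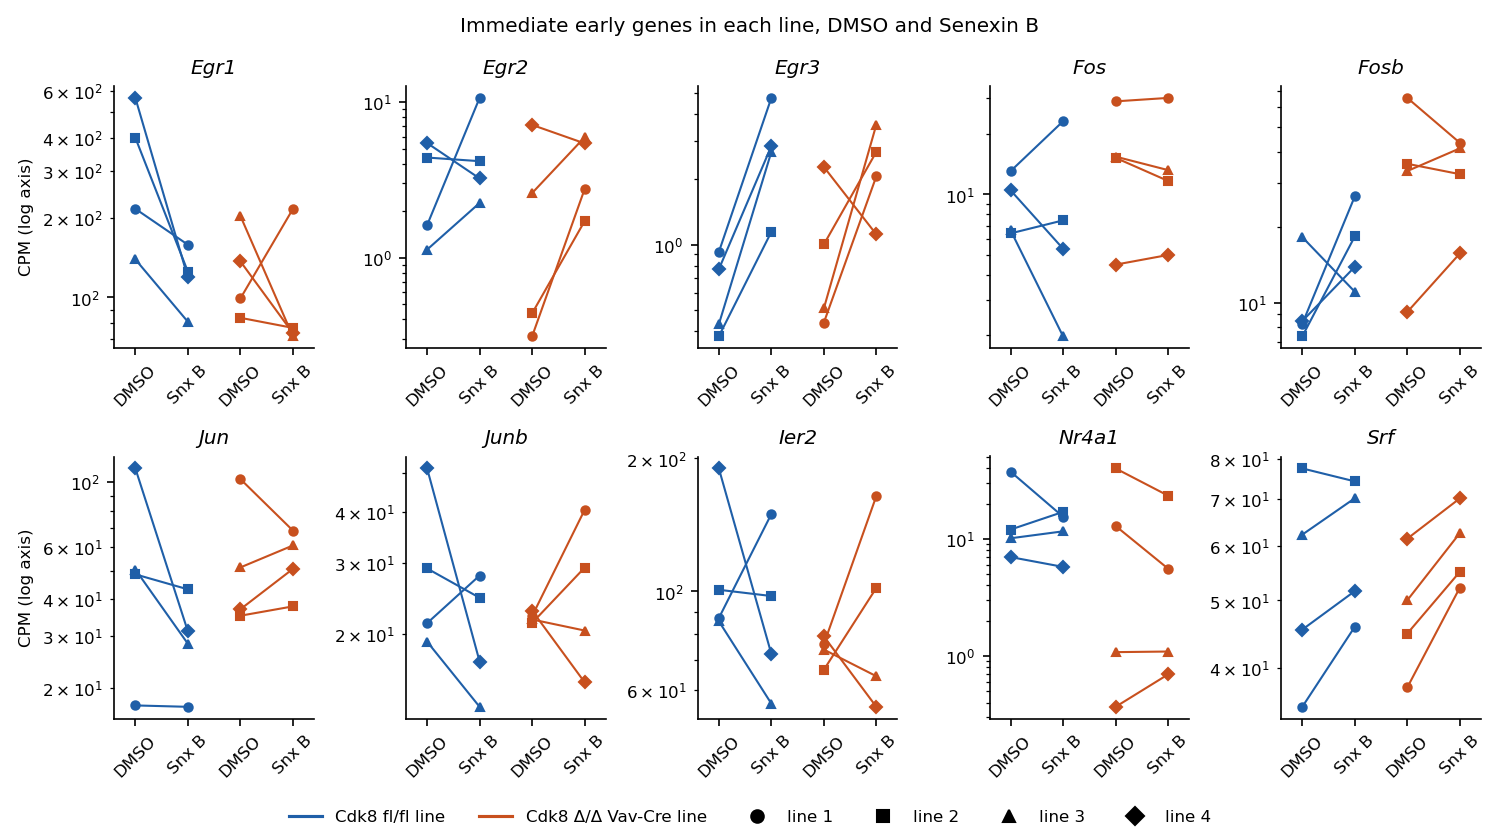
CPM of each member on a log axis (each panel has its own), with a line joining the DMSO and Senexin B libraries of 1 cell line, blue for control and orange for knockout lines. Egr3 climbs in every line but KO4, Egr1 descends in every line but KO1, and Nr4a1 keeps KO3 and KO4 low under both treatments.

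Lines differed in how many members were higher. With Senexin B, 7 of 10 members were higher in WT1 and in KO1, with median log2 changes of 0.59 and 0.67. In WT4 3 of 10 were higher, with a median of -0.86, and in the other 5 lines 4 to 6 were higher. The summed CPM of 7 heat shock chaperone genes, of which the constitutive Hspa8 had the highest mean in every group (also in RPKM) and the stress-induced Hspa1a, Hspa1b and Hspb1 did not pass 2.31 CPM, went from 444 to 314 in WT1 and from 502 to 247 in KO1, the lowest of all 16 libraries, and from 386 to 597 in WT4. The heat shock sum went from 328.7 to 466.5 in WT2 and from 290.4 to 577.1 in WT3. In KO2, KO3 and KO4 it went from 457.6 to 485.6, from 497.4 to 538.7 and from 600.9 to 574.7. The members' median log2 changes in these 5 lines were -0.05, -0.58, 0.20, 0.13 and -0.12. Mitochondrial reads went from 7.916% to 10.426% in WT1, from 8.855% to 8.316% in KO1 and from 8.011% to 9.007% in WT4. The part of these in the members' changes was not tested.

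**Figure D4:**
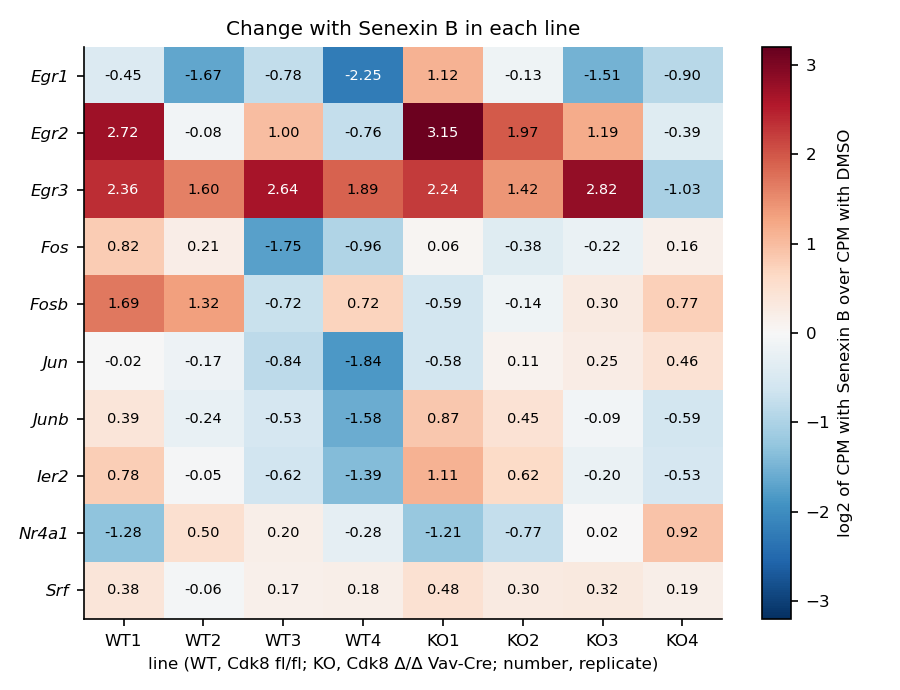
Log2 of CPM with Senexin B over CPM with DMSO for each member (rows) in each line (columns), red for higher and blue for lower with the inhibitor. Egr3 is red in 7 of 8 lines and Egr1 blue in 7 of 8, and the signs of Junb and Ier2 match in all 8.

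The inhibitor was then tested in each genotype on its own. With no block, 0 of 12989 genes were called in the control lines (0%, edgeR; 493 genes, 3.8%, at an unadjusted p under 0.05), and DESeq2 called 18. Egr3 (log2 fold change 2.19, standard error 0.50) was higher and Egr1 (-1.44, standard error 0.42) lower at an unadjusted p under 0.05, against 1.89% and 1.9% of all genes, with an adjusted p of 1 for both (edgeR). Egr3 was the 1 member whose groups did not overlap, as did 2.16% of genes. The replicate number named the line, and with it as a block 45 genes (0.346%) were called, Egr3 among them (2.16, adjusted p = 0.0315, edgeR). In that fit 3 members, Egr1, Egr3 and Jun, had an unadjusted p under 0.05, against 10.3% of genes.

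In the knockout lines, again with no block, 0 of 13285 genes were called (0%, edgeR; 243 genes, 1.83%, at an unadjusted p under 0.05) and no member reached an unadjusted p under 0.05 or stood without overlap, against 1.66% of genes. The log2 fold change of Egr3 was 1.17 (standard error 0.59, adjusted p = 1, edgeR) and that of Egr1 -0.26 (standard error 0.44). With the replicate block 7 genes (0.0527%) were called, none of them a member; Egr3 stood at 1.26 (adjusted p = 0.51) and Srf, the 1 member at an unadjusted p under 0.05 against 10.3% of genes, at 0.32 (adjusted p = 0.314). The difference between the responses was tested itself. No gene was called in that interaction when fitted with no block (0% of 14164; 67 genes, 0.473%, at an unadjusted p under 0.05, no member among them). The difference, knockout minus control, was 1.19 for Egr1 (standard error 0.65), -1.02 for Egr3 (standard error 0.79) and 0.88 for Jun (standard error 0.67), all with adjusted p of 1 (edgeR). With the replicate block 0 genes were called (0%), and 459 (3.24%) had an unadjusted p under 0.05, again no member. The differences were then 0.92 for Egr1 (standard error 0.56), -0.87 for Egr3 (standard error 0.73) and 0.77 for Jun (standard error 0.38), each with an adjusted p of 0.991 (edgeR).

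The genotypes were next compared under DMSO. No member was called, against 0.00759% of 13174 genes, which is 1 gene, and 3 of 10 had an unadjusted p under 0.05, against 5.32% of genes: 1 was higher and 2 were lower in knockout lines, against 2.38% and 2.94%. Egr1 was lower in knockout lines, at 131 ± 53.1 CPM (SD, n = 4) against 330 ± 191 CPM. Its fitted log2 fold change was -1.33, with a standard error of 0.46 and an adjusted p of 0.897 (edgeR). The Egr1 groups overlapped, since WT3 at 139 CPM lay below KO3 at 203 CPM. Ier2 was 73.9 ± 5.37 CPM against 116 ± 49.8 CPM, and it was the only member whose groups did not overlap, as did 3.14% of genes (log2 fold change -0.65, standard error 0.26, adjusted p = 0.897, edgeR). The gap was narrow, from 79.1 CPM in KO4 to 85.7 CPM in WT3, and WT4 at 190 CPM stood far above the other lines.

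Fosb was higher in the knockout lines with DMSO, at 36.0 ± 23.1 against 10.6 ± 5.14 CPM (log2 fold change 1.76, standard error 0.56, adjusted p = 0.897, edgeR). KO4 at 9.19 CPM lay among the control lines, and leaving out 1 library at a time gave log2 fold changes of 1.30 to 2.16. The other 7 members had an unadjusted p of 0.146 or more, with Fos at 0.81 (standard error 0.50), Egr3 at 0.75 (standard error 0.59) and Jun at -0.01 (standard error 0.55). The median of the 10 log2 fold changes was -0.22 and that of all genes 0.002. In the same comparison 3 of the 5 tested heat shock genes were higher at an unadjusted p under 0.05, against 2.38% of all genes. They were Hspa8 at 0.67, Hsph1 at 0.57 and Hsp90aa1 at 0.63 on the log2 scale, the last named after its value was seen. The part of this in the members' values was not tested.

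With Senexin B the genotypes differed in 2 members at an unadjusted p under 0.05, against 1.55% of genes, and none was called, as was none of all 13010 genes (0%, edgeR; 202 at an unadjusted p under 0.05, and 3 called by DESeq2). Fosb was 33.2 ± 12.6 CPM in knockout lines against 17.5 ± 6.75 CPM (log2 fold change 0.93, standard error 0.38, adjusted p = 1). Jun was 54.4 ± 13.3 against 29.9 ± 10.7 CPM (log2 fold change 0.87, standard error 0.30, adjusted p = 1). In both genes the groups overlapped, as those of all 10 members did, against 0.999% of genes without overlap. The log2 fold change of Egr1 was -0.14, with an interval of 2 standard errors from -0.94 to 0.66. These comparisons share libraries with those under Senexin B within line and are not independent of them.

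**Figure D5:**
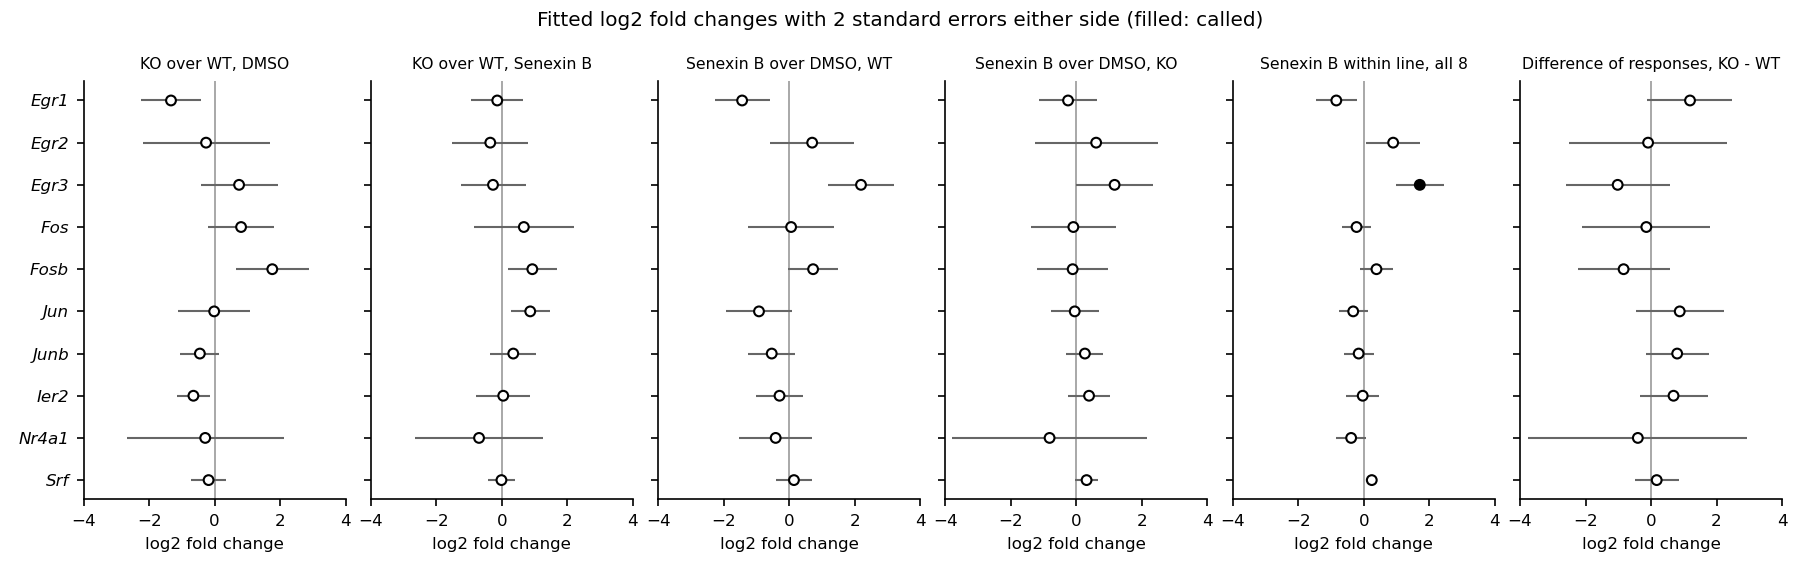
Fitted log2 fold change of each member in each of the 6 comparisons (panels; KO, knockout; WT, control), with bars of 2 standard errors either side and filled points where the gene was called. Only Egr3 within line, at 1.71, is filled, and that call was kept in 1 of 8 fits that leave out a line.

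The 30 further immediate early genes held none past both limits. Within line 5 of the 28 tested were higher and 5 lower with Senexin B at an unadjusted p under 0.05, against 7.79% and 8.61% of all genes. Csrnp1, a cysteine- and serine-rich nuclear protein, was lower in 8 of 8 lines, from 60.0 ± 18.1 to 35.2 ± 8.83 CPM in control and from 53.3 ± 9.26 to 46.5 ± 8.89 CPM in knockout lines. Its log2 fold change was -0.47 (standard error 0.11, adjusted p = 0.0454, edgeR), a change under 2-fold. Mcl1, an anti-apoptotic BCL2 protein, was also lower in 8 of 8 lines (-0.28, standard error 0.07, adjusted p = 0.0625). The other 3 lower genes were Ier5, Btg2 and Gadd45b, and the 5 higher ones were Nr4a2, Klf4, Zfp36l2, Rgs1 and Rgs2, all 8 with an adjusted p of 0.102 or more. These 8 are named after their values were seen. Between genotypes in DMSO, Plk2 (-1.51, standard error 0.55) and Atf3 (-1.71, standard error 0.69) were the 2 of 26 at an unadjusted p under 0.05, against 5.32% of all genes. Both were lower in knockout lines, with an adjusted p of 0.897 (edgeR). Plk2 is a polo-like kinase and Atf3 a stress-induced AP-1 partner.

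Among the 10 AP-1 partners 9 were tested within line. At an unadjusted p under 0.05, 1 was higher and 3 were lower, against 7.79% and 8.61% of all genes. Jund, the JUN protein that resting cells keep, was lower in 8 of 8 lines (log2 fold change -0.41, standard error 0.10, adjusted p = 0.0458, edgeR), again under 2-fold. Batf, which pairs with JUN proteins in lymphocytes, was higher in 7 of 8 lines (0.40, standard error 0.10, adjusted p = 0.0632). The other 2 lower were Atf7 and Mafk, both in 8 of 8 lines, with adjusted p of 0.117 and 0.218, named after their values were seen. In the genotype comparison in DMSO Mafg had the smallest p of the list (-0.58, standard error 0.20, adjusted p = 0.897) and Maff the next (-0.54, adjusted p = 0.908).

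The SRF and EGR cofactors showed little. None of 7 tested had an unadjusted p under 0.05 within line, against 16.4% of all genes, and Mrtfa (-0.15) and Nab2 (-0.53) had the smallest. Nab2, a corepressor of EGR proteins and itself an EGR target, was lower in knockout lines with DMSO, at 2.58 ± 1.35 against 10.2 ± 9.19 CPM (-1.97, standard error 0.76, adjusted p = 0.897, edgeR), with groups that overlapped. Mrtfb stood at 0.29. Of the cytoskeletal SRF targets, 15 of 16 were tested within line, where 10 had a log2 fold change above 0. At an unadjusted p under 0.05, 2 were higher, against 7.79% of all genes, and neither passed adjustment. They were the actin-related Acta2 (0.76, standard error 0.32, adjusted p = 0.248, edgeR) and Zyx (0.64, standard error 0.29, adjusted p = 0.299, edgeR). Both were near the floor, Acta2 at 0.254 to 1.69 CPM and Zyx at no more than 2.125 CPM in any library. Actg1, a cytoplasmic actin, was the 1 of 14 at an unadjusted p under 0.05 between genotypes in DMSO, against 5.32% of all genes (-0.64, standard error 0.26, adjusted p = 0.897, edgeR). Its groups did not overlap, as was so for 3.14% of genes. Actg1 was low, with means of 8.548 CPM in control and 5.465 CPM in knockout lines with DMSO. Actb of the same list had means of 4813 and 5078 CPM in these groups. Vcl was at 0.58 (adjusted p = 0.897, edgeR).

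The ERK cascade carries the growth signal to these genes. Within line 1 of its 18 genes was higher and 2 were lower at an unadjusted p under 0.05, against 7.79% and 8.61% of all genes. Map2k1, the kinase MEK1 (-0.27, adjusted p = 0.14), and the adaptor Grb2 (-0.20, adjusted p = 0.148) were lower in 8 of 8 lines, and Braf, named after its value was seen, was at 0.22. Between genotypes in DMSO, Rps6ka1 (0.79) and Sos1 (-0.49) had the smallest p, both with an adjusted p of 0.897 (edgeR). Of the 18, 2 genes were higher and 2 lower at an unadjusted p under 0.05, against 2.38% and 2.94% of all genes. In the Mediator kinase module 0 of 7 had an unadjusted p under 0.05 within line, against 16.4% of all genes. Med12 (0.23) and Ccnc (-0.18) had the smallest p there. Between genotypes in DMSO 2 of 7, Cdk8 and Med13l (-0.40, adjusted p = 0.897, edgeR), had an unadjusted p under 0.05, against 5.32% of all genes. The groups of both did not overlap, as was so for 3.14% of genes. Of 15 elongation factors at serum response genes, Aff4, a scaffold of the super elongation complex, was lower within line (-0.36, standard error 0.10, adjusted p = 0.0889) and Nelfe, a subunit of the pausing factor NELF, higher (0.25, adjusted p = 0.284). No elongation factor had an unadjusted p under 0.05 between genotypes in DMSO, against 5.32% of all genes. Nelfe (0.31) and Hexim1 (0.32) had the smallest p there. Of the heat shock genes Hspa1b was lower within line (-0.76, adjusted p = 0.254) and Hsph1 was at 0.39.

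The members did not share a pattern over the 16 libraries. Against the mean of the other 9 on the log2(CPM + 1) scale, Pearson's r was 0.82 for Ier2, 0.81 for Junb and 0.55 for Fos, and ran from -0.44 (Srf) to 0.20 (Egr1) for the other 7. Outside the list, the genes most like the mean of the 10 were Lrrc24 (r = 0.91), Zfp78 (0.89), Aup1 (0.88), Lrch1 (0.88) and Epn2 (0.88). These are descriptions over 16 libraries in which each line appears under both treatments, and the 5 genes were picked for the highest r of all.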

How the data were processed

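RNA of 16 libraries, 4 lines of each genotype with DMSO and with Senexin B, was sequenced by the study (SENSE mRNA-Seq kit, 50 bp single-end). The authors used Trimmomatic for trimming, STAR for mapping and featureCounts 1.5.1 for counting (GENCODE M13, GRCm38); the deposited values are raw counts per gene, with no strand option. In 15 files the header names an annotation folder called modified and in 1 file, of WT1 with DMSO, another; WT1 was left out in turn like the other lines. Groups came from the labels.

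CPM and RPKM were computed with edgeR 4.0.16 (R 4.3.3), TMM factors over 16 libraries and exon lengths of the files. Comparisons used filterByExpr and edgeR's quasi-likelihood test (robust), adjusted by Benjamini-Hochberg over all genes tested; a call needed an adjusted p below 0.05 and a change of more than 2-fold. Standard errors came from the F statistic. Genotype comparisons and those of Senexin B in 1 genotype used 8 libraries and no block; the within-line fit and the interaction used all 16. Replicate numbers pair both treatments of a line: correlations of the deviations from group means were 0.559 to 0.781 in control (Cdk8 fl/fl) and 0.765 to 0.872 in knockout (Cdk8 Δ/Δ Vav-Cre) lines, each library matching its own number best. Alternatives were DESeq2 1.42.0, RLE factors, other filters and limits, the replicate block, all libraries in 1 fit, and leaving out each library or line.

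The members and the gene lists were chosen with earlier results of these data known. Named are the 10 members, Cdk8 and Cdk19, genes called in any other list and its 2 smallest p in the genotype (DMSO) and within-line comparisons, and the 5 genes most correlated with the members' mean. No pair of the 120 library pairs was a copy. Promoters came from RefSeq (GRCm38.p6), and figures were drawn with matplotlib 3.10.9.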

Additional observations from a re-analysis of the deposited data

Results flagged for a closer look

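In 44 groups of 4 libraries (the 10 members and Cdk8 in 4 groups), 6 held a library whose distance from the nearest other was a larger share of the group's range than Dixon's critical value for 4 samples. Chance gives this in about 5% of groups if the values are normally distributed. The check used CPM without a log, for which that rate may not hold, and in all 6 groups the library was the highest. Egr1 was 215 CPM in KO1 with Senexin B and 71.4 to 76.8 CPM in the other 3 knockout lines. Fosb was 18.3 CPM in WT3 with DMSO and 7.35 to 8.46 CPM in the other 3 lines. Ier2 was 190 CPM in WT4 with DMSO against 85.6 to 101 CPM, and Nr4a1 was 37.5 CPM in WT1 with DMSO against 6.99 to 12.0 CPM. Cdk8 was 89.2 CPM in WT1 with Senexin B against 55.1 to 56.7 CPM, and 61.7 CPM in KO2 with Senexin B against 41.1 to 43.8 CPM.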

How the results depend on the processing

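The numbers of genes called depended on the setting. DESeq2 called 21 genes in the genotype comparison in DMSO, 3 in that with Senexin B and 18 for Senexin B in control lines. In the genotype comparison in DMSO a minimum of 10 counts in every library and the replicate block each left 0 genes, as did leaving out any 1 library (0 to 0). In that with Senexin B no filter on low counts, all 16 libraries in 1 fit and an adjusted p limit of 0.1 each gave 1 gene. For Senexin B in control lines, no filter gave 3 genes and the replicate block 45; in knockout lines the block gave 7. Within line, the minimum of 10 counts gave 40 genes, no replicate block 0 and no fold change limit 373; leaving out lines gave 80 to 178. For the members, the block moved Egr3 in control lines past the limits (2.16, adjusted p = 0.0315), and taking it away within line ended the call of Egr3 (1.66, adjusted p = 0.532). It changed no other call of a member. The genotype numbers share only a number (mean correlation of 0.01 with DMSO and 0.124 with Senexin B, 1 of 4 libraries matching its own best). Small values changed sign with the block: Jun between genotypes in DMSO (0.054) and for Senexin B in knockout lines (0.054), Srf between genotypes with Senexin B (0.008), Fos in control lines (-0.35), Fosb in knockout lines (0.058), and in the interaction Egr2 (0.48) and Fos (0.24); Ier2 within line did so without it (0.04). The causes were not tested. Of the members' values with a library or line left out, 496 kept direction and call, 56 changed sign, 7 lost a call (Egr3 within line) and 1 gained one (Egr1 within line, without KO1). These are the ranges of the log2 fold changes that crossed 0. Between genotypes in DMSO, Egr2 ran from -1.485 to 0.128, Jun from -0.467 to 0.533, Nr4a1 from -1.801 to 0.489 and Srf from -0.348 to 0.014. Between genotypes with Senexin B, Egr1 ran from -0.7 to 0.018, Egr2 from -0.615 to 0.302, Egr3 from -0.54 to 0.086, Ier2 from -0.34 to 0.361 and Srf from -0.126 to 0.103. For Senexin B in control lines, Fos ran from -0.895 to 0.399, Ier2 from -0.621 to 0.051, Nr4a1 from -0.666 to 0.358 and Srf from -0.029 to 0.35. For Senexin B in knockout lines, Egr1 ran from -0.826 to 0.05, Fos from -0.69 to 0.361, Fosb from -0.435 to 0.346, Jun from -0.223 to 0.408, Junb from -0.032 to 0.447, Ier2 from -0.008 to 0.578 and Nr4a1 from -2.467 to 0.685. Within line, Junb ran from -0.296 to 0.043 and Ier2 from -0.189 to 0.16. In the interaction, Egr2 ran from -0.493 to 1.132, Fos from -0.734 to 0.801, Nr4a1 from -2.042 to 1.1 and Srf from -0.038 to 0.338.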
